A study of Mus musculus with 48 samples.

Results

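The genes described are 10 chemokine ligands of monocytes and macrophages, *Ccl2*, *Ccl3*, *Ccl4*, *Ccl6*, *Ccl9*, *Ccl24*, *Cxcl2*, *Cxcl13*, *Cxcl16*, and *Pf4*. They were chosen by name, from a list of ligands, and make up 10 of the 54735 genes listed in each library. RNA-seq was performed on splenic monocytes (Ly6Glo CD11bhi F4/80-), pre-RPMs (Ly6Glo CD11bhi F4/80lo), which are precursors of red pulp macrophages, and mature RPMs (Ly6Glo CD11blo/- F4/80hi), sorted from Balb/c mice of 10 weeks. Each cell type was taken from 4 WT mice and 4 mice labelled IL1RL1-/-, whose label names the loss of the IL-33 receptor, which gave 24 libraries in 6 groups of 4. The study asked how these cells mature into iron-recycling macrophages and whether the receptor takes part. A further 24 samples for chromatin accessibility were not analysed here.

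Chemokines are small secreted proteins that draw leukocytes along a gradient by binding G protein-coupled receptors on the responding cell. Those named CCL carry their first pair of cysteines side by side, whereas those named CXCL have a residue between them, and Pf4 (platelet factor 4) belongs to the latter kind. In the spleen, ligands made by macrophages and stromal cells position monocytes, lymphocytes, and granulocytes, and many inflammatory ligands are made only after a stimulus.

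*Ccl9*, *Ccl6*, *Ccl3*, and *Ccl4* lie in this order on chromosome 11 of GRCm38. *Ccl9* spans 83572919 to 83578636 and *Ccl6* spans 83587882 to 83593087, both on the minus strand, with 9245 bases between them. *Ccl3* spans 83647844 to 83649355 on the minus strand, and *Ccl4* spans 83662584 to 83664683 on the plus strand. *Ccl24* lies on chromosome 5 from 135569937 to 135573049 and *Cxcl16* on chromosome 11 from 70453983 to 70459984, both on the minus strand. The RefSeq promoter table (GRCm38.p6) held 6 of the 10 ligands, *Ccl3*, *Ccl6*, *Ccl9*, *Cxcl2*, *Cxcl13*, and *Pf4*. The 250 bases before the start are given below for the 3 ligands of the cluster held there, because *Ccl6* and *Ccl9* were high in the same groups, whereas *Ccl3* was not. *Ccl4*, also detected, was not held. That of *Cxcl2* is added because it holds a kB-like motif although the gene was not detected. The sequences run 5′ to 3′ on the strand of the gene and end at the base before the start. They come from chr11:83578637-83578886 for *Ccl9*, chr11:83593088-83593337 for *Ccl6*, chr11:83649379-83649628 for *Ccl3*, and chr5:90903649-90903898 for *Cxcl2*, the first 3 on the minus strand and the last on the plus strand. Capitals mark a match on either strand of GGAAGT or of the kB-like motif GGANNTTCC. GGAAGT is a form of the site that ETS factors such as PU.1 bind, and the shorter GGAA was not searched.
Ccl9: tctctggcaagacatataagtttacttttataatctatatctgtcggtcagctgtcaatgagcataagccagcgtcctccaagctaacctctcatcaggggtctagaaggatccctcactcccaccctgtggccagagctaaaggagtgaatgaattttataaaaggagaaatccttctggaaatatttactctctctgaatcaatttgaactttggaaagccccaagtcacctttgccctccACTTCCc
Ccl6: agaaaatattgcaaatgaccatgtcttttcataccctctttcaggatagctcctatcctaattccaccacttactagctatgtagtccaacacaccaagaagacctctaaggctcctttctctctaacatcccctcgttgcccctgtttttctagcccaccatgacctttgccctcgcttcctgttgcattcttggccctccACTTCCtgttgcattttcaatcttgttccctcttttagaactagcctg
Ccl3: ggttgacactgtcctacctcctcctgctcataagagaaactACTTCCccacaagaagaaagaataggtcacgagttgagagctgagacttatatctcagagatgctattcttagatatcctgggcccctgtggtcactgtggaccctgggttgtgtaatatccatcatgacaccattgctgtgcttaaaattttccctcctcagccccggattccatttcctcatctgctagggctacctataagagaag
Cxcl2: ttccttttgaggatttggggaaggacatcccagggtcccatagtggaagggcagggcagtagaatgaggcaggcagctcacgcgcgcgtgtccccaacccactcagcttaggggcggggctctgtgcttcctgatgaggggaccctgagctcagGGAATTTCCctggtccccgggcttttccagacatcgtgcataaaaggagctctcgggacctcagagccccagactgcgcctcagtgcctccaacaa
The promoters of *Ccl9*, *Ccl6*, and *Ccl3* each held 1 match of GGAAGT, on the opposite strand, at −7 to −2, −48 to −43, and −209 to −204 relative to the RefSeq start. The same letters occurred in 19.7% of all 32851 promoters of the same length, so that the matches are a description of these windows. GGANNTTCC occurred in 3.59% of promoters, and among the 6 ligands in *Cxcl2* only, where the match at −96 to −88 reads on both strands. The longer GAGGAAGT, which contains GGAAGT, occurred in 2.44% of promoters and among the 6 in that of *Pf4* only. The letters of GGAAGT were chosen after the sequences had been seen.

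The libraries held between 3562367 and 6559454 counts (median 4728764), and 3 counts, at or below which a gene was not told apart from 0, corresponded to 0.457 to 0.842 CPM. Counts of *Il1rl1* went against the label in monocytes (12 to 28 in WT and 51 to 73 in libraries labelled IL1RL1-/-) and pre-RPMs (13 to 24 and 42 to 76), whereas RPMs had 5 to 13 in WT and 1 to 7 with the IL1RL1-/- label. Directions between genotypes follow the labels. Of 10 RPM markers, including *Spic* and *Vcam1*, the summed level was 44.5 to 142 CPM in monocytes, 160 to 355 CPM in pre-RPMs, and 6573 to 9152 CPM in RPMs. The summed level of 10 monocyte markers was 628 to 1667 CPM in monocytes, 1378 to 1916 CPM in pre-RPMs, and 1415 to 1807 CPM in RPMs. Singly, 8 of the 10 fell from pre-RPMs to RPMs in each genotype, and *Csf1r* rose.

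Of the 10 ligands, 6 were measured above 3 counts in several libraries, and 4 were at or near 0 in all 6 groups. *Ccl2*, the ligand that draws monocytes through Ccr2, had no count in any of the 8 monocyte libraries and at most 1 count in any other library. *Cxcl2*, which draws neutrophils through Cxcr2, had at most 2 counts in any of the 24 libraries. *Cxcl13*, made by stromal cells of the B cell follicle and bound by Cxcr5, had at most 3. *Pf4*, a product of megakaryocytes and platelets that some macrophages also make, exceeded 3 counts in 1 of 24 libraries, an RPM library labelled IL1RL1-/- with 4 counts. Thus none of these 4 ligands stood above 3 counts in more than 1 library, and no fold change is given for them. In the same libraries the summed level of 10 platelet and megakaryocyte markers was 1.79 to 9.68 CPM, and that of 12 stromal and endothelial markers was 26.8 to 64.2 CPM in monocytes and pre-RPMs and 132 to 162 CPM in RPMs. Of the other 6, the number above 3 counts in all 4 libraries of a group was 5 in WT monocytes, 5 in monocytes labelled IL1RL1-/-, 5 in WT pre-RPMs, 4 in pre-RPMs labelled IL1RL1-/-, 2 in WT RPMs, and 3 in RPMs labelled IL1RL1-/-.

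Per length, the leading ligand of the 10 was *Ccl6* in monocytes and pre-RPMs and *Ccl24* in RPMs. The level per kb of exonic length of *Ccl6*, a ligand of Ccr1, was 79.1 ± 28.2 CPM per kb in WT monocytes, 175 ± 22.4 in WT pre-RPMs, and 15.9 ± 1.94 in WT RPMs (mean ± SD, n = 4). The level per kb of *Ccl24*, known as eotaxin-2 and a ligand of Ccr3 on eosinophils, was 1.43 ± 1.38, 5.80 ± 1.21, and 42.0 ± 6.75 CPM per kb in the same groups (mean ± SD, n = 4). *Ccl6* led in 16 of 16 monocyte and pre-RPM libraries, and *Ccl24* in 8 of 8 RPM libraries, where its level per kb was 1.72 to 3.76 times that of *Ccl6*. *Ccl5*, a chemokine ligand outside the 10, was higher than *Ccl6* in every monocyte library, at 119 to 411 CPM per kb over both genotypes. In WT monocytes, *Ccl9* (27.6 ± 10.8), *Ccl4* (19.5 ± 7.06), and *Ccl3* (17.4 ± 6.93 CPM per kb, mean ± SD, n = 4) followed *Ccl6* with ranges that overlapped among these 3, and *Cxcl16* was at 1.90 ± 1.61. In WT RPMs, *Ccl3*, *Ccl4*, *Ccl9*, and *Cxcl16* were each below 1 CPM per kb on average.

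**Figure D1:**
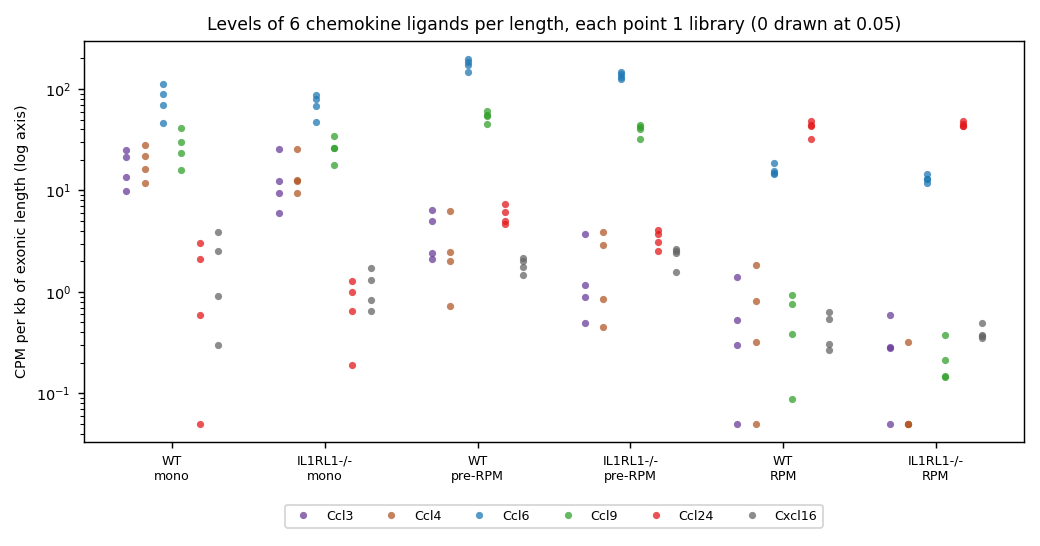
Level of 6 chemokine ligands in CPM per kb of exonic length (log axis), with 1 point for each of 4 mice in the 6 groups and values of 0 drawn at the bottom of the axis. Of these 6, *Ccl6* is the highest in all 16 monocyte and pre-RPM libraries and *Ccl24* in all 8 RPM libraries.

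*Ccl6* was highest in pre-RPMs and lowest in RPMs. In mice 1 to 4, its level was 125, 82.4, 202, and 159 CPM in WT monocytes, 355, 334, 262, and 307 CPM in WT pre-RPMs, and 27.9, 33.7, 26.0, and 26.9 CPM in WT RPMs. With the IL1RL1-/- label, it was 84.5, 122, 155, and 144 CPM in monocytes, 264, 225, 235, and 251 CPM in pre-RPMs, and 21.4, 23.3, 23.1, and 26.1 CPM in RPMs. The ranges of the 3 cell types did not overlap in either genotype. From monocytes to pre-RPMs, *Ccl6* rose by 1.15 on the log2 scale in WT (SE 0.23, adjusted p = 0.00938 by edgeR's quasi-likelihood test). Cell types were called different where the adjusted p was below 0.01 and the change exceeded 1 on the log2 scale. This call was lost when the mouse was a block (edgeR's adjusted p = 0.0104) and on leaving out any library other than that of WT monocytes of mouse 3. Over all 8 such fits the log2 fold change was 0.96 to 1.37, the highest without mouse 3. In libraries labelled IL1RL1-/-, the log2 difference of 0.95 (SE 0.16, edgeR's adjusted p = 0.00214) stayed below the limit on size and became a call without monocytes of mouse 3 (1.06, edgeR's adjusted p = 7.15e-04) or of mouse 4 (1.02, edgeR's adjusted p = 0.00287). From pre-RPMs to RPMs, *Ccl6* fell 11.3-fold in WT (log2 fold change −3.50, SE 0.15, edgeR's adjusted p = 2.58e-10) and 10.8-fold in libraries labelled IL1RL1-/- (−3.43, SE 0.11, edgeR's adjusted p = 7.69e-13).

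*Ccl9*, the neighbour of *Ccl6* and likewise a ligand of Ccr1, had the same order of cell types and a much deeper fall. Its level was 71.3, 48.3, 126, and 90.7 CPM in WT monocytes of mice 1 to 4, and 139, 165, 184, and 169 CPM in their pre-RPMs. In WT RPMs, its counts were 11, 14, 1, and 5, against 594, 625, 747, and 709 in pre-RPMs. In libraries labelled IL1RL1-/-, the counts of mice 1 to 4 were 221, 380, 481, and 390 in monocytes, 569, 757, 411, and 524 in pre-RPMs, and 2, 7, 2, and 3 in RPMs. Every RPM library was thus far below every monocyte and pre-RPM library. Between pre-RPMs and RPMs, its log2 change was −6.58 (SE 0.27, edgeR's adjusted p = 2.20e-10) in WT and −7.43 (SE 0.21, edgeR's adjusted p = 2.72e-13) in libraries labelled IL1RL1-/-. From monocytes to pre-RPMs, it was 0.96 (SE 0.24, edgeR's adjusted p = 0.0228) in WT and 0.61 (SE 0.17, edgeR's adjusted p = 0.0295) in libraries labelled IL1RL1-/-, neither of which was a call. Blocking on the mouse turned the WT value into a call at 1.03 (edgeR's adjusted p = 0.00722), and it did so as well without WT monocytes of mouse 3 (1.23, edgeR's adjusted p = 9.37e-04).

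The neighbours parted in RPMs. The level of *Ccl6* per kb was 2.42 to 4.35 times that of *Ccl9* in the 16 monocyte and pre-RPM libraries, and 19.99 to 165 times in the 8 RPM libraries. The log2 ratio rose from pre-RPMs to RPMs by 3.63 in WT (1.70 ± 0.35 to 5.33 ± 1.43) and by 4.23 in libraries labelled IL1RL1-/- (1.78 ± 0.24 to 6.01 ± 0.62, mean ± SD, n = 4). Each difference reached p = 0.0286, the smallest that an exact 2-sided permutation test of 4 against 4 allows, and 0.0572 after adjustment over 4 such tests. From monocytes to pre-RPMs, the log2 ratio moved by 0.17 in WT (exact permutation test, p = 0.429, n = 4) and by 0.35 in libraries labelled IL1RL1-/- (p = 0.0571). The RPM ratios rest on 1 to 14 counts of *Ccl9* per library.

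*Ccl24* ran the other way and was the only ligand of the 10 called higher in RPMs. Its counts in mice 1 to 4 were 5, 0, 17, and 18 in WT monocytes, 28, 23, 32, and 40 in WT pre-RPMs, and 270, 205, 232, and 242 in WT RPMs. For mice labelled IL1RL1-/-, they were 1, 4, 6, and 8 in monocytes, 17, 31, 11, and 26 in pre-RPMs, and 248, 359, 285, and 260 in RPMs. The ranges of CPM of the 3 cell types did not overlap within either genotype. From pre-RPMs to RPMs, *Ccl24* rose 6.97-fold in WT (log2 fold change 2.801, SE 0.17, edgeR's adjusted p = 7.97e-09) and 12.4-fold in libraries labelled IL1RL1-/- (3.63, SE 0.13, edgeR's adjusted p = 4.50e-12). Leaving out any 1 library kept this log2 fold change in WT at 2.72 to 2.93. Erythroid transcripts were higher in RPMs as well, with 8 of 8 markers called higher in both genotypes. Their summed level was 11.1 to 619 CPM in WT pre-RPMs and 1228 to 23700 CPM in WT RPMs, the highest of each in mouse 3. The part of erythroid transcripts in the rise of *Ccl24* was not tested. From monocytes to RPMs, the log2 fold changes were 4.88 (SE 0.47, edgeR's adjusted p = 9.42e-06) and 5.78 (SE 0.24, edgeR's adjusted p = 2.57e-09). From monocytes to pre-RPMs, they were 2.04 (SE 0.56, edgeR's adjusted p = 0.0349), which was no call, in WT and 2.08 (SE 0.38, edgeR's adjusted p = 0.00366) in libraries labelled IL1RL1-/-. The latter call was lost without monocytes of mouse 2 or pre-RPMs of mouse 1, 2, or 4 of that genotype (highest edgeR's adjusted p = 0.0184). The former was gained without WT monocytes of mouse 3 (2.58, edgeR's adjusted p = 0.00569) and in a single fit of all 24 libraries (2.06, edgeR's adjusted p = 7.55e-04).

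*Ccr3*, which encodes the receptor of Ccl24, rose in the same direction. Its counts in mice 1 to 4 were 24, 7, 21, and 47 in WT monocytes, 226, 154, 80, and 137 in WT pre-RPMs, and 1479, 1317, 1468, and 1163 in WT RPMs. Its log2 change was 3.06 (SE 0.38, edgeR's adjusted p = 6.59e-04) from WT monocytes to pre-RPMs and 3.05 (SE 0.25, edgeR's adjusted p = 1.44e-07) from WT pre-RPMs to RPMs. For the IL1RL1-/- label, these were 2.28 (SE 0.40, edgeR's adjusted p = 0.00263) and 3.63 (SE 0.25, edgeR's adjusted p = 6.03e-09). Eosinophils also carry *Ccr3*. Of 8 eosinophil markers, the 7 other than *Ccr3* had a summed level of 11.98 to 35.7 CPM in monocytes, 36.3 to 59.3 CPM in pre-RPMs, and 22.2 to 34.3 CPM in RPMs. *Prg2*, which encodes eosinophil major basic protein, had 30 to 62 counts in WT pre-RPMs and 19 to 33 in WT RPMs, and *Epx*, which encodes eosinophil peroxidase, had at most 8 counts in any library. *Ear1* had none in RPMs labelled IL1RL1-/-. The sum of the 7 was lower in RPMs than in pre-RPMs and overlapped with that in monocytes, and *Ccl24* and *Ccr3* were highest in RPMs. The part of eosinophil transcripts in the rise of *Ccl24* and *Ccr3* was not tested.

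*Ccl3* and *Ccl4*, which encode the inflammatory chemokines MIP-1α and MIP-1β, were highest in monocytes. The counts of *Ccl3* in mice 1 to 4 were 125, 81, 33, and 69 in WT monocytes, 7, 7, 20, and 16 in WT pre-RPMs, and 0, 2, 4, and 1 in WT RPMs. In libraries labelled IL1RL1-/-, they were 80, 34, 44, and 22 in monocytes, 12, 4, 3, and 2 in pre-RPMs, and 2, 0, 1, and 1 in RPMs. Monocytes did not overlap with pre-RPMs or RPMs of their genotype. *Ccl3* fell from monocytes to pre-RPMs, at a log2 change of −2.13 (SE 0.38, edgeR's adjusted p = 0.00461) in WT and −3.12 (SE 0.58, edgeR's adjusted p = 0.00397) in libraries labelled IL1RL1-/-. The WT call was lost with the mouse as a block (edgeR's adjusted p = 0.0116) and without WT monocytes of mouse 1 or 2 or WT pre-RPMs of mouse 1, 2, or 4 (log2 fold changes of −2.45 to −1.89 over all 8 fits that each left out 1 library). The other call was lost without pre-RPMs of mouse 2, 3, or 4 labelled IL1RL1-/- (highest edgeR's adjusted p = 0.0182). From WT pre-RPMs to RPMs, where the counts were too low for the fit across genes, mean log2 CPM of *Ccl3* differed by −2.06 (exact 2-sided permutation test, p = 0.0286, n = 4, and 0.124 after adjustment over 13 such tests). Fits that kept lower counts called this fall, DESeq2 at −2.96 (adjusted p = 7.80e-04), edgeR with every gene of at least 1 count at −2.89 (adjusted p = 4.74e-06), and edgeR over all 24 libraries at −2.86 (adjusted p = 0.00376). In libraries labelled IL1RL1-/-, the difference was −1.16 (exact 2-sided permutation test, p = 0.0571), and none of these fits called it.

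The counts of *Ccl4* in mice 1 to 4 were 93, 93, 47, and 52 in WT monocytes, 7, 5, 17, and 2 in WT pre-RPMs, and 1, 6, 2, and 0 in WT RPMs. Mice labelled IL1RL1-/- had 69, 40, 38, and 30 in monocytes, 8, 15, 1, and 3 in pre-RPMs, and 0, 0, 0, and 1 in RPMs. From pre-RPMs to RPMs, mean log2 CPM of *Ccl4* differed by −1.28 in WT, with overlapping ranges (exact 2-sided permutation test, p = 0.114, n = 4), and by −1.67 in libraries labelled IL1RL1-/-, without overlap (p = 0.0286, or 0.124 adjusted). The latter was called by DESeq2 (−4.50, adjusted p = 0.00280) and by edgeR over all 24 libraries (−4.22, adjusted p = 0.00419) or with every gene of at least 1 count (−4.25, adjusted p = 4.56e-05), against 1 count in 4 RPM libraries. As with *Ccl3*, monocytes were apart from the other cell types of their genotype. The log2 fold change from monocytes to pre-RPMs was −2.74 (SE 0.45, edgeR's adjusted p = 0.00295) in WT and −2.78 (SE 0.48, edgeR's adjusted p = 0.00254) in libraries labelled IL1RL1-/-. The first call was lost without WT pre-RPMs of mouse 1, 2, or 4 (highest edgeR's adjusted p = 0.0166) and the other without pre-RPMs of mouse 4 labelled IL1RL1-/- (edgeR's adjusted p = 0.0122). From monocytes to RPMs in WT, *Ccl3* fell 32.1-fold (log2 fold change −5.01, SE 0.54, edgeR's adjusted p = 2.35e-05) and *Ccl4* 24.4-fold (−4.61, SE 0.52, edgeR's adjusted p = 3.45e-05). These folds rest on few counts per WT RPM library, 0 to 4 for *Ccl3* and 0 to 6 for *Ccl4*. In libraries labelled IL1RL1-/-, both were called as well (edgeR's adjusted p = 3.26e-05 and 3.29e-06), but the RPM counts summed over 4 libraries were only 4 for *Ccl3* and 1 for *Ccl4*. The ratio of CPM from summed counts, monocytes over RPMs, was 48.7 for *Ccl3* (95% interval 18.7 to 181, exact, counting error only) and 192 for *Ccl4* (33.9 to 7608).

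NK cells are a known source of *Ccl3*, *Ccl4*, and the related *Ccl5*, and several of their transcripts were also highest in monocytes. Of 10 NK and T cell markers, 10 exceeded 3 counts in monocytes of each genotype, and none was at 0 in all libraries of any group. Their summed level was 576 to 1867 CPM in WT monocytes, 91.8 to 163 CPM in WT pre-RPMs, and 36.8 to 102 CPM in WT RPMs. In mice labelled IL1RL1-/-, it was 518 to 1565, 40.1 to 75.3, and at most 59.2 CPM, in the same order. *Ncr1*, which encodes the NK cell receptor NKp46, had 434 to 1755 counts in WT monocyte libraries and 65 to 91 in WT pre-RPM libraries. Of the 10 markers, 6 fell from WT monocytes to RPMs, whereas *Cd3e* and *Cd3g* of T cells rose, the former from 7 to 34 counts in WT monocytes to 23 to 91 in WT RPMs. *Ccl5* had 598 to 2571 counts in WT monocytes and 64 to 100 in WT pre-RPMs, a log2 change of −3.75 (SE 0.33, edgeR's adjusted p = 2.00e-04). A sum of 9 basophil and mast cell markers was also higher in WT monocytes (27.6 to 98.3 CPM) than in WT RPMs (2.68 to 14.3 CPM), with 16.3 to 66.6 CPM in WT pre-RPMs. Of 10 neutrophil markers, the summed level was 756 to 2482 CPM in monocytes, 90.3 to 351 CPM in pre-RPMs, and 2.20 to 14.8 CPM in RPMs over both genotypes, with *Elane* at 0 in WT RPMs and *Ly6g* at 0 in RPMs labelled IL1RL1-/-. *Prss34* had no count in RPMs of either genotype. The sum of 8 B and plasma cell markers was 349 to 1765 CPM in monocytes, 58.6 to 372 CPM in pre-RPMs, and 37.7 to 266 CPM in RPMs. That of 9 dendritic cell markers was 118 to 214 CPM in monocytes, 94.4 to 175 CPM in pre-RPMs, and 83.4 to 109 CPM in RPMs. The sort labels give Ly6Glo, and the cytometry of the study counted these cells among those low for the NK cell marker encoded by *Klrb1c*. In these libraries, *Klrb1c* itself had 83 to 359 counts in WT monocytes and 7 to 17 in WT pre-RPMs. With the IL1RL1-/- label, it had 57 to 205 counts in monocytes and 0 to 2 in pre-RPMs. The part of NK, T, B, basophil, mast cell, dendritic cell, and neutrophil transcripts in the fall of *Ccl3* and *Ccl4* was not tested. In bulk samples, fewer cells of a type cannot be told apart from less RNA per cell.

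**Figure D2:**
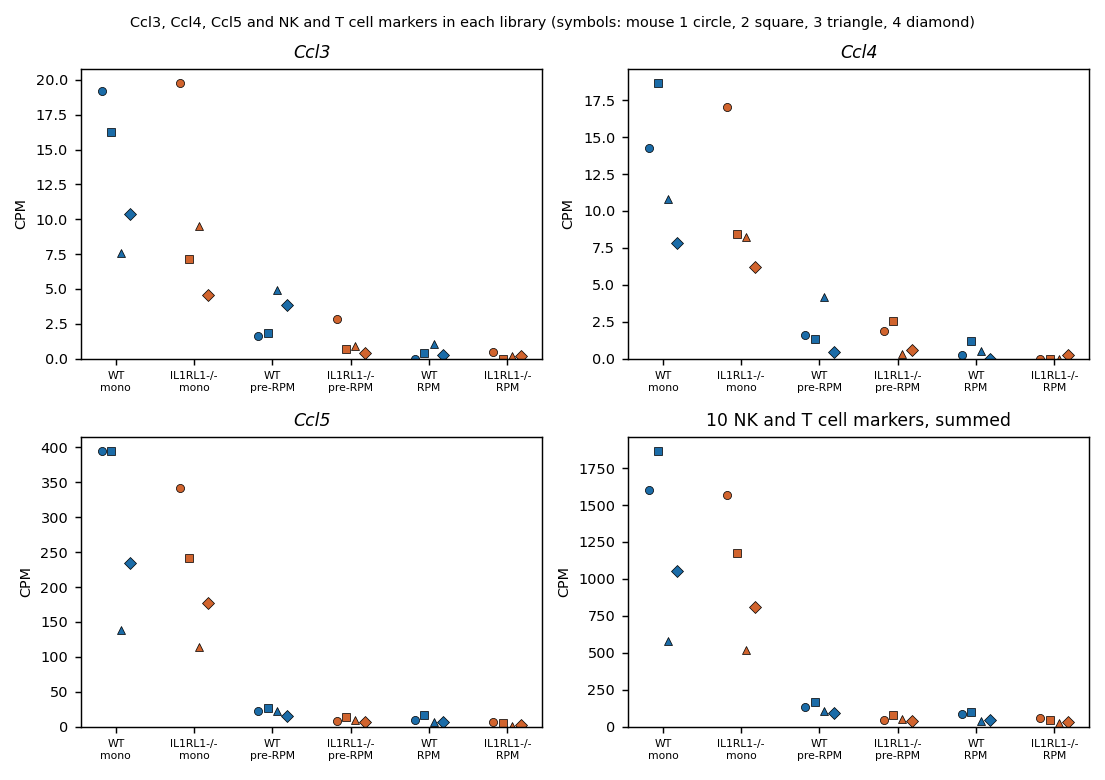
CPM of *Ccl3*, *Ccl4*, and *Ccl5* and the summed CPM of 10 NK and T cell markers in each library (blue, WT, orange, labelled IL1RL1-/-, with 1 symbol per mouse number). In each genotype all 4 panels are highest in the 4 monocyte libraries, where the marker sum is 518 to 1867 CPM, and across genotypes *Ccl3* of 1 WT pre-RPM library (4.92 CPM) exceeds that of 1 monocyte library labelled IL1RL1-/- (4.54 CPM).

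*Cxcl16*, a transmembrane ligand of Cxcr6 that Adam10 and Adam17 release from the cell, was low in RPMs. Its counts in mice 1 to 4 were 76, 38, 12, and 6 in WT monocytes, 26, 25, 18, and 22 in WT pre-RPMs, and 9, 8, 3, and 4 in WT RPMs. Those of mice labelled IL1RL1-/- were 16, 12, 9, and 25 in monocytes, 31, 45, 16, and 43 in pre-RPMs, and 5, 9, 5, and 5 in RPMs. The WT monocyte libraries ranged from 0.902 to 11.7 CPM and overlapped with every other group. From pre-RPMs to RPMs, where the ranges did not overlap, *Cxcl16* fell by log2 changes of −2.07 (SE 0.31, edgeR's adjusted p = 7.58e-05) in WT and −2.58 (SE 0.29, edgeR's adjusted p = 1.75e-06) in libraries labelled IL1RL1-/-. The log2 fold change from monocytes to pre-RPMs was −0.05 (SE 0.55) in WT and 1.06 (SE 0.30) in libraries labelled IL1RL1-/-, with edgeR's adjusted p = 0.958 and 0.0306, neither of which was a call. Between monocytes and RPMs, where it was too low for the fit, mean log2 CPM differed by −1.42 in WT, with overlapping ranges (exact 2-sided permutation test, p = 0.143, n = 4), and by −1.17 in libraries labelled IL1RL1-/- without overlap (p = 0.0286, or 0.124 adjusted over the 13 tests). With every gene of at least 1 count, edgeR called the fall in WT (−2.10, adjusted p = 2.15e-07) and in libraries labelled IL1RL1-/- (−1.47, adjusted p = 0.00402), and over all 24 libraries in WT (−2.08, adjusted p = 0.00168). DESeq2 called neither (adjusted p = 0.0112 and 0.0105). *Adam10* and *Adam17* were called in no comparison. *Adam17* was lower in RPMs than in pre-RPMs by less than the limit on size, at −0.92 in WT (edgeR's adjusted p = 4.16e-06) and −0.89 in libraries labelled IL1RL1-/- (edgeR's adjusted p = 8.86e-07).

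**Figure D3:**
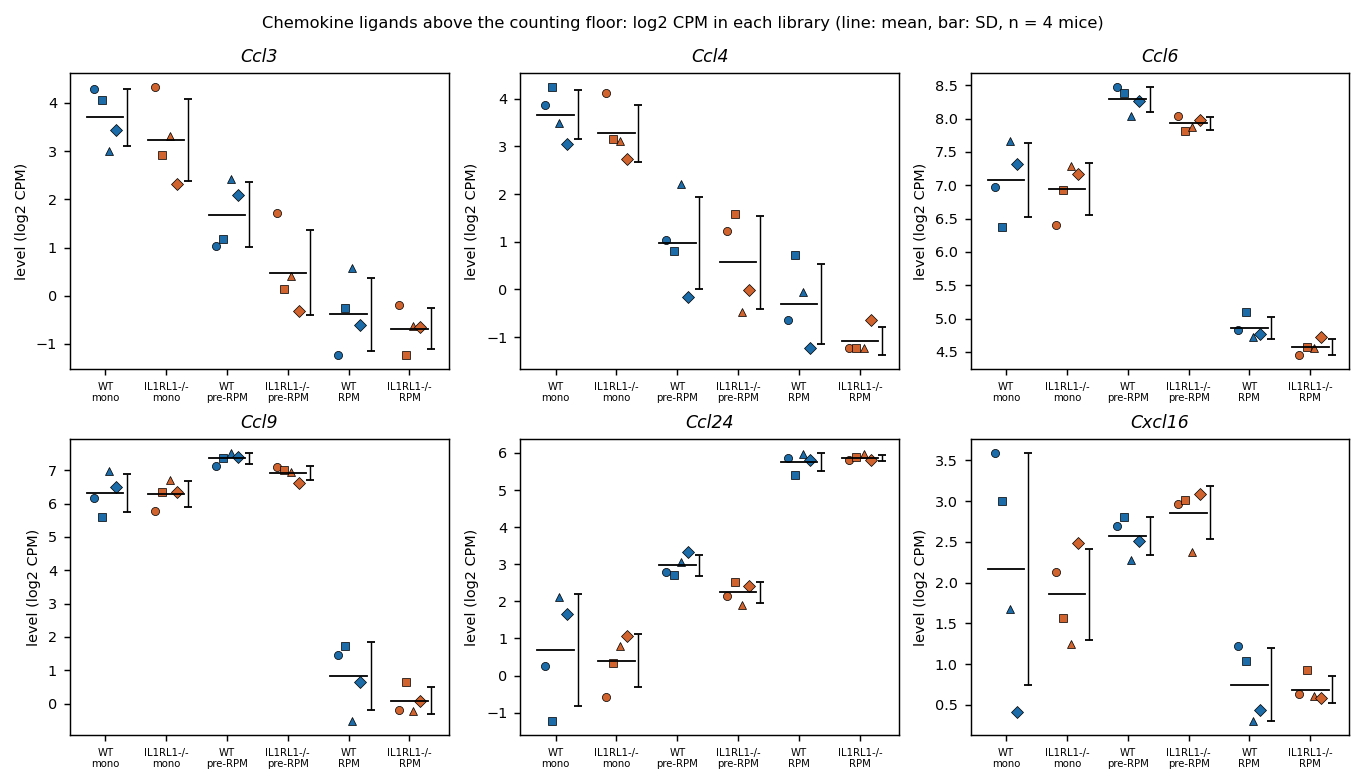
Level (log2 CPM, 1 panel per ligand) of the 6 ligands above the counting floor in each library, with the mean (line) and SD (bar) of 4 mice in each of 6 groups. *Ccl6* and *Ccl9* are highest in pre-RPMs and *Ccl24* in RPMs, *Ccl3* and *Ccl4* are highest in monocytes, and values near −1 correspond to 0 or 1 count.

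Over all ligands, from monocytes to pre-RPMs 3 of the 6 tested were called in WT, *Ccl6* up and *Ccl3* and *Ccl4* down, where 3.57% of all genes tested were called. In libraries labelled IL1RL1-/-, 3 of 6 were called, *Ccl24* up and *Ccl3* and *Ccl4* down, beside 4.85% of all genes. From pre-RPMs to RPMs, 4 of the 4 tested were called in WT, 1 up and 3 down, beside 24.7% of all genes. The same counts, 4 of 4 with 1 up and 3 down, were found in libraries labelled IL1RL1-/-, beside 26.0%. From monocytes to RPMs, 5 of 5 were called in WT (1 up, 4 down, beside 23.9% of all genes) and 5 of 5 in libraries labelled IL1RL1-/- (1 up, 4 down, beside 25.9%). A ligand enters a fit only with enough counts in 1 of the groups, so that these shares describe the ligands that entered. The median log2 fold change of the ligands tested was −2.78 from WT pre-RPMs to RPMs, beside −0.0012 for all genes, and 0.46 from WT monocytes to pre-RPMs, beside 0.0069.

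**Figure D4:**
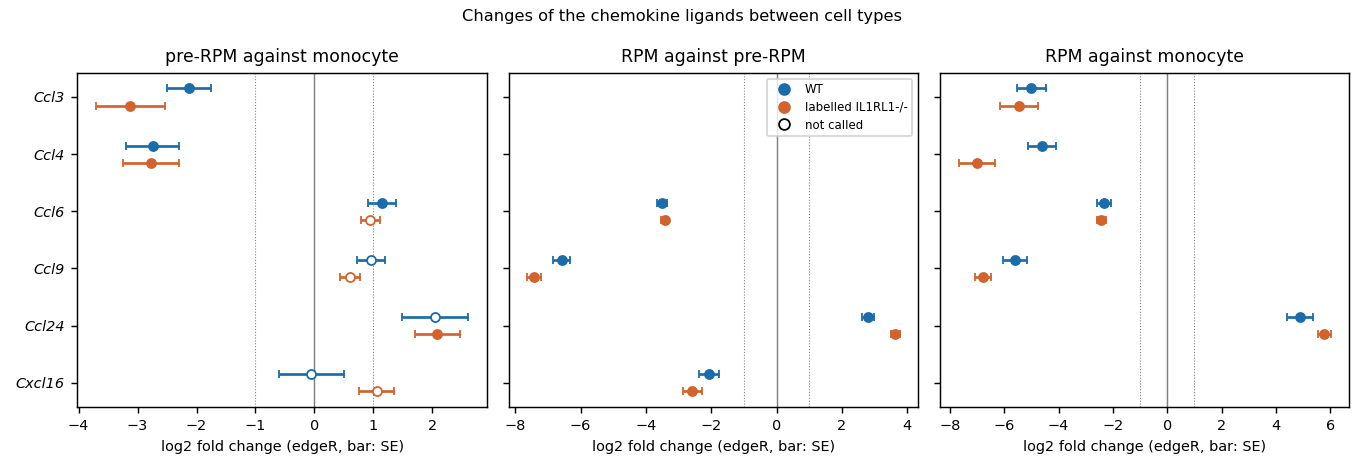
Log2 fold change with its SE (edgeR) of each ligand between cell types, in WT (blue) and in libraries labelled IL1RL1-/- (orange). Filled points are calls, open points are not, dotted lines mark a log2 fold change of 1 in either direction, and ligands without a point did not enter the fit. *Ccl24* is the only ligand to the right of 0 in the comparisons with RPMs.

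Between genotypes, no ligand of the 10 was called in any cell type at edgeR's adjusted p under 0.05 in the fit without a block. In pre-RPMs, 0 of the 4 tested were called, beside 0.552% of all genes, although *Ccl9*, *Ccl6*, and *Ccl24* were each lower by label at an unadjusted p under 0.05. The CPM of *Ccl9* was 139 to 184 in WT pre-RPMs and 98.1 to 135 in pre-RPMs labelled IL1RL1-/-, without overlap. Its log2 fold change was −0.44 (95% interval −0.66 to −0.22, unadjusted p = 0.00131, edgeR's adjusted p = 0.119). *Ccl6* had ranges that overlapped slightly (262 to 355 and 225 to 264 CPM) and a log2 fold change of −0.37 (−0.58 to −0.16, edgeR's adjusted p = 0.191). It was called without WT pre-RPMs of mouse 3 (−0.45, edgeR's adjusted p = 0.0475). *Ccl24*, with 6.06 to 9.56 and 3.29 to 5.28 CPM, had a log2 fold change of −0.75 (−1.21 to −0.29, edgeR's adjusted p = 0.283). *Cxcl16* had one of 0.34 (−0.11 to 0.79, edgeR's adjusted p = 0.725). *Ccl3* and *Ccl4* were too low in pre-RPMs for the fit, and mean log2 CPM differed by −1.20 for *Ccl3* (exact 2-sided permutation test, p = 0.0857, n = 4) and −0.40 for *Ccl4* (p = 0.6), with overlapping ranges.

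In RPMs, 0 of the 2 ligands tested were called, beside 0.233% of all genes. The log2 fold change of *Ccl24* between genotypes was 0.09 (95% interval −0.13 to 0.32, edgeR's adjusted p = 0.930) and that of *Ccl6* −0.30 (−0.53 to −0.06, unadjusted p = 0.0266, edgeR's adjusted p = 0.641). In monocytes, 0 of 5 were called, beside 0.0614% of all genes, with log2 fold changes from −0.77 (*Cxcl16*) to −0.08 (*Ccl9*) and edgeR's adjusted p of at least 0.997. Whether a change between cell types differed by genotype was tested as an interaction. For monocytes to pre-RPMs, 0 of 6 ligands were called, beside 0% of all genes. For pre-RPMs to RPMs, 0 of 4 were called, beside 0.107%. The interaction nearest to the threshold was that of *Ccl24* from pre-RPMs to RPMs, 0.85 (SE 0.24, unadjusted p = 0.00183, edgeR's adjusted p = 0.255), which means that its rise was 1.80-fold larger by label without passing the test. The pre-RPM values enter this interaction and the genotype difference alike.

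Among 31 other chemokine ligands, 2 to 4 entered a comparison between cell types or genotypes, and *Ccl5* and *Cxcl9* were those called. *Ccl5* fell from WT pre-RPMs to RPMs (log2 fold change −1.24, edgeR's adjusted p = 0.00159) and was lower by label in pre-RPMs labelled IL1RL1-/- (−1.24, SE 0.22, edgeR's adjusted p = 0.0144), with 64 to 100 counts in WT and 30 to 80 in the others. The NK and T cell marker sum was also lower there, as given above, and its part in the difference of *Ccl5* was not tested. *Cxcl9*, a ligand of Cxcr3 induced by interferon-γ, rose from WT pre-RPMs to RPMs by 1.27 on the log2 scale (SE 0.35, edgeR's adjusted p = 0.00710). It had 4 to 11 counts in WT pre-RPMs and 13 to 25 in WT RPMs. In libraries labelled IL1RL1-/-, *Ccl5* (−1.23, edgeR's adjusted p = 0.0138) and *Cxcl9* (0.88, edgeR's adjusted p = 0.0564) were not called from pre-RPMs to RPMs. Among the chemokine receptors, *Ccr3* rose and *Ccr1* and *Ccr2* fell from pre-RPMs to RPMs in both genotypes. *Ccr2*, the receptor of Ccl2, fell by 6.18 on the log2 scale in WT (SE 0.38, edgeR's adjusted p = 9.07e-09), and *Ccr1*, the receptor of Ccl6 and Ccl9, fell by 3.68 (SE 0.38, edgeR's adjusted p = 1.74e-06). *Ccr1* and its ligands *Ccl6* and *Ccl9* were thus all lower in RPMs.

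Genes of acute activation were set beside the ligands. Of 19 immediate early genes, 15 were tested from WT pre-RPMs to RPMs, of which 0 rose and 11 fell, among them *Fos*, *Junb*, and *Atf3*, beside 24.7% of all genes called in either direction. From WT monocytes to pre-RPMs, 0 rose and 2 of 17 tested fell (*Egr1* and *Egr3*), beside 3.57% of all genes. Of 15 NF-κB and inflammatory genes, 13 were tested from WT pre-RPMs to RPMs, of which 1 rose and 4 fell, beside the same 24.7%, and 0 of 13 were called from WT monocytes to pre-RPMs.

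For each ligand whose group means differed by at least 2 in log2 CPM, the 12842 genes kept over all libraries were ranked by the root mean square difference of their centred log2 CPM over the 24 libraries. The genes nearest to *Ccl9* were *Serpinb10* (0.35), *Ccr2* (0.36), and *Ldlrad3* (0.41), beside a median of 3.05 over all genes. Those nearest to *Ccl6* were *Csgalnact2* (0.29), *Fcgr2b* (0.30), and *Cers6* (0.30). Near *Ccl24* were the genes of the lysosomal enzymes *Pla2g15* (0.60) and *Lgmn* (0.63). *Ccl3* had *Il12rb2* (0.71), *Ccl4* (0.71), and *Phactr3* (0.73), and *Ccl4* had *Atp1b1* (0.59), *Kcnj8* (0.71), and *Ccl3* (0.71). *Cxcl16* had *Naaa* (0.60), *Srgn* (0.60), and *Hgf* (0.62). The likeness is a description, since all genes share the same libraries and groups.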

How the data were processed

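RNA-seq counts were analysed for 24 libraries of splenic monocytes, pre-RPMs, and RPMs, 1 for each cell type of 4 mice per genotype. The mice with the same number within a genotype are read from the labels as the same animal. Per the file headers, the authors used featureCounts 1.6.2 to count strand-specific read pairs over exons joined by gene name (GRCm38, Ensembl annotation), after trimming with cutadapt and alignment with STAR 2.5.1. The deposited values are counts, neither normalized nor filtered. All libraries were sequenced on 1 lane. The 10 ligands and all gene lists were chosen with earlier results of these data known.

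Fits used TMM, filterByExpr, and the quasi-likelihood F test of edgeR 4.0.16 (R 4.3.3) on pairs of groups, or on 16 libraries for interactions, with Benjamini-Hochberg adjustment over all genes tested. The SE was derived from the F statistic. CPM used TMM factors over 24 libraries (0.797 to 1.38) and log2 CPM a prior count of 2. Where the fit left a ligand out, exact 2-sided permutation tests in Python 3.11.15 (SciPy 1.17.1) were used, which cannot go below p = 0.0286. All 10 ligands are named. Other ligands and receptors are named where called, or where they are receptors of the ligands, and marker lists are given by their sums. *Ncr1*, *Klrb1c*, *Epx*, *Prg2*, *Cd3e*, *Cd3g*, *Csf1r*, *Adam17*, and the immediate early genes named were chosen after their values were seen. A level per length divides CPM by exonic length in kb. Alternatives were DESeq2 1.42.0, RLE scaling, a test of all genes with any count, a minimum of 10 counts per library, all 24 libraries in a single fit, glmTreat, the mouse number as a block, and each library left out. The scripts were tested on simulated data. As a check of the pairing, libraries of the same mouse were compared by how their genes departed from the group mean. The mean correlation over mice was 0.0628 between WT monocytes and pre-RPMs and 0.208 with the IL1RL1-/- label. Same-numbered mice of the 2 genotypes gave 0.257 in monocytes and 0.162 in RPMs, each pair above 0.1. Some results on other genes are not reported here.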

Additional observations from a re-analysis of the deposited data

Results flagged for a closer look

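The 4 libraries of each group were checked for 1 far from the others, for 6 ligands in 6 groups (36 checks of log2 CPM), and chance marks about 1 in 20. *Cxcl16* in RPMs labelled IL1RL1-/- had 9 counts (1.48 CPM) in mouse 2 and 5 in each of the others, a gap of 0.847 of the range. *Ccl4* in the same group had 1 count in mouse 4 and 0 in the others, so that the gap was 1.0 of the range, at a level not told apart from 0.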

How the results depend on the processing

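The 24 calls of a ligand between cell types kept their direction under every alternative that tested them. DESeq2 and RLE size factors changed no call among the ligands that the fits above had tested. DESeq2, the fit with every gene of at least 1 count, and that of all 24 libraries also tested ligands of lower counts, and each added calls from pre-RPMs to RPMs. From monocytes to pre-RPMs, the 3 calls in each genotype became 0 with glmTreat and 0 with at least 10 counts in every library, which left 2 ligands to test. Leaving out 1 library gave 0 to 5 calls in WT and 0 to 4 in libraries labelled IL1RL1-/-. With at least 10 counts in every library, 2 ligands were tested and called from pre-RPMs to RPMs in each genotype, and 1 from monocytes to RPMs. In pre-RPMs between genotypes, 1 ligand was called when every gene with at least 1 count was tested and 2 (*Ccl6*, edgeR's adjusted p = 0.0343, and *Ccl9*, 0.0382) with the mouse number as a block, although same-numbered mice of the 2 genotypes are different animals (mean r = 0.092 in pre-RPMs, where 4 of 4 libraries correlated best with their own number, against 0.257 in monocytes and 0.162 in RPMs). Leaving out 1 library gave 0 to 1. The block gave 2 calls from WT monocytes to pre-RPMs and changed no other call of a ligand.

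Directions turned only where no call was made. The log2 fold change of *Cxcl16* from WT monocytes to pre-RPMs was 0.21 with the block and −0.43 to 0.61 when 1 library was left out. Between genotypes, leaving out 1 library gave −0.36 to 0.053 for *Ccl6* and −0.27 to 0.19 for *Ccl9* in monocytes, and −0.0066 to 0.17 for *Ccl24* in RPMs. The interactions from monocytes to pre-RPMs gave −0.63 to 0.69 for *Ccl4* and −0.51 to 0.41 for *Ccl24*. The causes were not tested. At 3562367 to 6559454 counts per library, ligands under about 1 CPM could not be compared.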
